A study of Mus musculus with 12 samples.

Results

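The interferon-induced GTPases described here are 10 genes, Tgtp1, Tgtp2, Igtp, Irgm1, Irgm2, Iigp1, Ifi47, Gbp2, Gbp3 and Gbp7, of 55836 genes listed for 12 mouse liver libraries. They were taken by symbol from a list drawn up with their high levels in the livers treated with cinnabarinic acid already known, so they were in effect chosen by those CPM values. Differences that involve those livers therefore describe the genes and are no independent test of them. All 10 passed the filter on low counts, as did 13620 genes in all. For each of the 10 genes the highest of the 12 levels was found in the same treated liver, MD+CA replicate 2. The log2 fold changes of the 10 genes in MD+CA against MD are given with and without it. For genes of other lists some values are given with all libraries only, and these can rest on it too. The labels give nothing that sets this library apart from the others of its group, and why it stood apart was not tested.

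The libraries came from livers of AhR-floxed mice, which carry loxP-flanked alleles of the aryl hydrocarbon receptor (AhR) gene in all groups. No Cre driver is named in the labels, and Ahr itself was read at 22.8 ± 4.12 CPM (counts-per-million, SD, n = 4) on the control diet, 30.9 ± 5.52 in the MD group and 23.2 ± 7.92 in the MD+CA group. The control group (CD) ate a diet with 10 kcal% fat and matching sucrose, from 8 weeks of age and for 20 weeks. The MD group ate a steatohepatitis-inducing diet (40 kcal% fat, 20 kcal% fructose, 2% cholesterol) over the same 20 weeks and was injected intraperitoneally 3 times a week with vehicle (0.2% DMSO in saline). The MD+CA group ate that diet and was injected on the same schedule with 12 mg/kg cinnabarinic acid, a product of tryptophan breakdown known as an AhR ligand. Whether CD mice were injected is not stated. The comparison of MD+CA with MD addresses the effect of the compound on that diet, and that of MD with CD the effect of diet with injection. There were 4 libraries per group, and the labels do not say in words that each came from a different mouse, so p-values measure the spread between these samples, which may be technical in part.

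The libraries held 9089586 to 14492587 reads assigned to genes, and no pair of libraries in a group agreed within sampling noise. Mitochondrial transcripts took 4.97 to 7.94% of the reads in CD and MD+CA and up to 17.5% in MD, in replicate 2. The mice are labelled male, but Xist was read 5122 to 12865 times per library. The Y-linked genes Ddx3y, Kdm5d, Uty and Eif2s3y had no read in any library (0 of 12), and 3 counts, the limit that a count of 0 allows, are 0.207 to 0.33 CPM (counting error only). The counts go against the labelled sex in every group. The 8 hepatocyte markers were all detected, with a summed level of 38080 to 72400 CPM. The hour of collection is not given, and the clock gene Bmal1 was at 0.716 to 2.70 CPM in the 8 CD and MD libraries and at 8.76 to 17.1 CPM in the 4 MD+CA libraries, so the compound cannot be told apart from what moved Bmal1.

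Interferon-induced GTPases are proteins that cells make in large amounts after exposure to interferons, above all interferon gamma, and that attack the membrane compartments in which intracellular bacteria and parasites live. In the mouse they include the immunity-related GTPases (IRG), of which Irgm1, Irgm2 and Igtp sit on the cell's own membranes and hold the effectors Iigp1, Tgtp1, Tgtp2 and Ifi47 inactive there, and the guanylate-binding proteins (GBP), which coat pathogen vacuoles and bacteria. Interferon gamma acts mainly through gamma-activated sites (GAS) in promoters, whereas type I interferons act mainly through the interferon-stimulated response element (ISRE). In mouse liver, Iigp1 is also known to be transcribed from a promoter that is active without infection.

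The promoters were searched for the letters of these sites, and 6 are shown, those with a match of the genes whose MD+CA libraries all lay above the MD libraries, and Tgtp2 as the partner of Tgtp1. Each is the 250 bases before the RefSeq start site on build GRCm38.p6, written 5′ to 3′ on the gene's own strand, at chr11:48992247-48992496 on the minus strand for Tgtp1, chr11:49064213-49064462 minus for Tgtp2, chr11:58199306-58199555 plus for Igtp, chr11:58214727-58214976 plus for Irgm2, chr11:48871421-48871670 minus for Irgm1 and chr3:142559794-142560043 plus for Gbp3 (the first of its start sites). Capitals mark matches to TTCNNNGAA (the GAS letters) and GAAANNGAAA (the ISRE letters), searched on both strands, so that TTTCNNTTTC is the same ISRE match read from the other strand. Overlapping matches run into each other.
Tgtp1: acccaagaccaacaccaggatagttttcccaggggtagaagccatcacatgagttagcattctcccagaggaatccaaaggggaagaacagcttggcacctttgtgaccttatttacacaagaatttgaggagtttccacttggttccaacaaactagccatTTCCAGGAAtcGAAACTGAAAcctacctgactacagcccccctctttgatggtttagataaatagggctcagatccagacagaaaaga
Tgtp2: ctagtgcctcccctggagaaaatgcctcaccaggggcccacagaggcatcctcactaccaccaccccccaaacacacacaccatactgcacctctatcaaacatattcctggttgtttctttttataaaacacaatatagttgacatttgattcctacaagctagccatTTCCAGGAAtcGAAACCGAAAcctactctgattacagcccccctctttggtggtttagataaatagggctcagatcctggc
Igtp: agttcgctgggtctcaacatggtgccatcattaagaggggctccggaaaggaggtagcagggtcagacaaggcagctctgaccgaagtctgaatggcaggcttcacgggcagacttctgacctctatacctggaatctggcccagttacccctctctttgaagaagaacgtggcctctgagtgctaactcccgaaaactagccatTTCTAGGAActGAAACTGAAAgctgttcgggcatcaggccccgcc
Irgm2: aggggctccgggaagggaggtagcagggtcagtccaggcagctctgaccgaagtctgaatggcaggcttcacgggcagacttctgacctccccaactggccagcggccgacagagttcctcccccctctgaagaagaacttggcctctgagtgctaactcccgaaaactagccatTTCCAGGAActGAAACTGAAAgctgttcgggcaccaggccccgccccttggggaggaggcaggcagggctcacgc
Irgm1: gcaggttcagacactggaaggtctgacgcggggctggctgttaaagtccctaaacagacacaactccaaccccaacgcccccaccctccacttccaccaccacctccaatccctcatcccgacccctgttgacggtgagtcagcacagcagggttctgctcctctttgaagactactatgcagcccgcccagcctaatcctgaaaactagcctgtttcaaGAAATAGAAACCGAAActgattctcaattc
Gbp3: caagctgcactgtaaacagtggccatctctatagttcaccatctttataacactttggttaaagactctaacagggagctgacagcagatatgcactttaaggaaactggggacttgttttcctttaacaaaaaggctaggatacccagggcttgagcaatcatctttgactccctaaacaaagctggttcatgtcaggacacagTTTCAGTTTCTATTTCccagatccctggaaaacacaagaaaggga
In Tgtp1, Tgtp2, Igtp and Irgm2 a GAS match stands 2 bases before an ISRE match on the same strand. The GAS begins 88, 81, 45 and 75 bases before the start site in these genes, in that order. Irgm1 and Gbp3 hold 2 overlapping ISRE matches each and no GAS match.

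Of the 10 genes, 9 matched a RefSeq promoter window. The ISRE letters were found in 8 of these 9 genes and in 2.98% of 32851 windows of this length, and the GAS letters in 5 of 9 and in 7.02% of windows. Ifi47 held neither in its window. Both motifs together were present in 5 of the 9 genes, Gbp7 being the fifth, and in 0.332% of windows. The spacing with 2 bases between them, noticed after the sequences were seen, occurred in 5 of all 32851 windows (0.0152%), those of Tgtp1, Tgtp2, Igtp, Irgm2 and Gm12185. Within pairs these promoters are related, with 69.9% identity between Igtp and Irgm2 and 65.3% between Tgtp1 and Tgtp2, so the 2 of a pair are not independent of each other. Between these pairs the identity was 51.1% (Igtp and Tgtp2) to 56.4% (Irgm2 and Tgtp2), where the windows of Gbp2 and Ifi47 had 52.3%. Of the other gene lists used below, the ISRE letters were in 10 of 21 type I interferon-stimulated genes and in 2 of 17 interferon gamma targets with a window, and in none of 7 Kupffer cell markers. The GAS letters were in 4 of these 21, in 2 of these 17 and in 0 of these 7, so they did not mark the gamma targets. Of 7 other GTPases of these families with a window, 3 held the ISRE letters, 2 the GAS letters and 2 both motifs. A match is a description of letters and not of a bound factor.

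**Figure D1:**
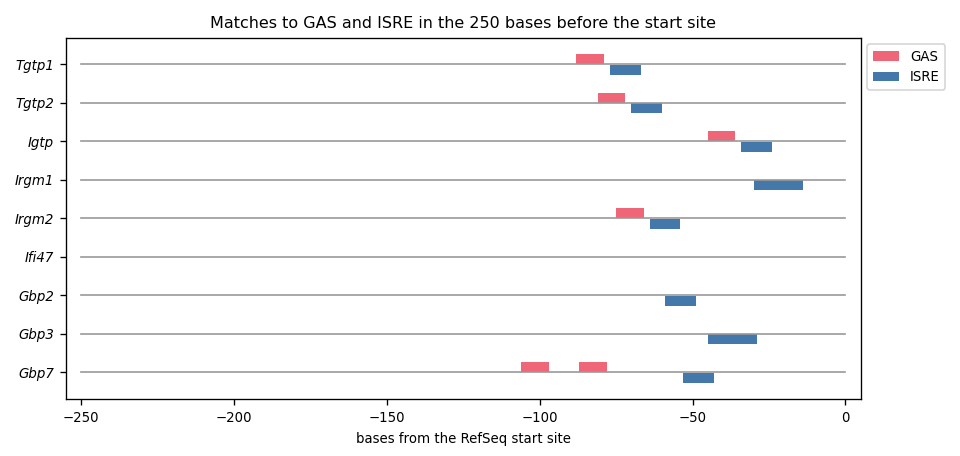
Matches to the GAS and ISRE letters in the promoter windows of the 9 genes that had one, drawn by distance in bases from the RefSeq start site (x axis), with 1 line per gene. Tgtp1, Tgtp2, Igtp and Irgm2 show the close GAS and ISRE pair, and Ifi47 shows no match.

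Tgtp1 and Tgtp2 cannot be separated cleanly by sequencing reads. Their coding sequences are 1248 bases each and differ at 4 positions, counted from the A of the start codon with the Tgtp1 base first, G270C, C408T, C729T and C735A, which is 99.68% identity. The stretch that holds the last 2 differences, positions 706 to 735 of the coding sequence, is shown with the differing bases in capitals.
Tgtp1: caggatctcccagcccacaagcgCcacgtC
Tgtp2: caggatctcccagcccacaagcgTcacgtA
The longest run without a difference is 513 bases, and 91.9% of the 31-base words of the Tgtp2 coding sequence also occur in that of Tgtp1. The division of reads between the pair by the quantification is therefore uncertain, and their sum is given beside each. The other members are further apart in their coding sequences, with 78.1% identity for Gbp3 and Gbp7 and 70.3% for Igtp and Irgm2. Of the 31-base words of the Irgm2 coding sequence 16.4% also occur in that of Igtp, and of those of Gbp7 9.70% in that of Gbp3. These pairs can therefore share some reads too. Tgtp1, Tgtp2, Irgm1, Ifi47, Igtp and Irgm2 lie on chromosome 11 and Gbp2, Gbp3 and Gbp7 on chromosome 3.

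**Figure D2:**
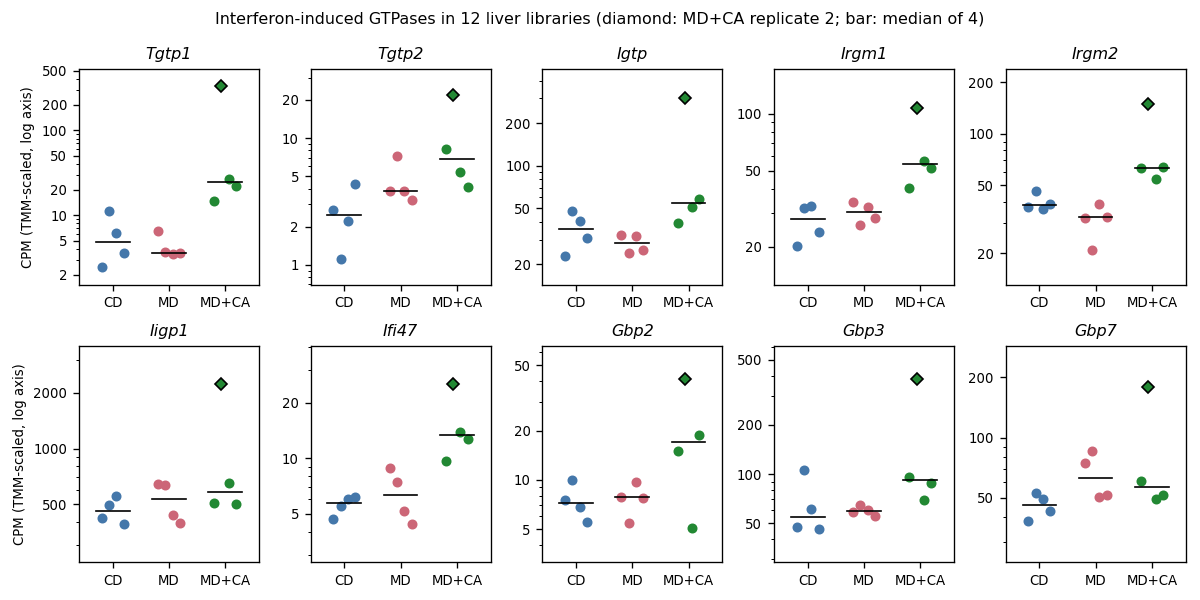
Level of each of the 10 genes in every library (y axis, CPM scaled by TMM, log axis), with 4 libraries in each of CD, MD and MD+CA on the x axis. Points are libraries, bars are medians of 4, and the diamond is MD+CA replicate 2, which was the highest of the 12 libraries in all 10 panels.

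Tgtp1, an effector of the IRG family, had the widest range. It was read at 2.43, 11.2, 6.17 and 3.55 CPM in CD replicates 1 to 4, at 6.52, 3.66, 3.53 and 3.58 CPM in MD, and at 14.8, 331, 26.6 and 22.4 CPM in MD+CA. Every MD+CA library lay above all 8 others, and MD+CA replicate 2 lay 12.5 times above the next highest library, with 4046 reads. The log2 fold change of MD+CA against MD was 4.51 (SE 0.91, edgeR adjusted p = 0.0203), and without MD+CA replicate 2 it was 2.29 (SE 0.43, adjusted p = 0.0315). Leaving out MD replicate 1, 2 or 4 ended the call (adjusted p = 0.0540, 0.0633 and 0.0556). Without MD+CA replicate 2 the MD+CA mean was 21.3 ± 5.97 CPM (SD, n = 3), against 4.32 ± 1.46 in MD and 5.85 ± 3.92 in CD (SD, n = 4). In bulk liver, more cells of a type and more RNA per cell cannot be told apart, here and below.

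Tgtp2 was read at 2.70, 1.11, 2.24 and 4.31 CPM in CD, at 3.85, 7.23, 3.83 and 3.26 CPM in MD, and at 8.27, 22.0, 5.44 and 4.15 CPM in MD+CA. Its MD and MD+CA libraries overlapped, and its log2 fold change of 1.15 (SE 0.48, adjusted p = 0.171) did not pass the threshold of 0.05. It fell to 0.40 (adjusted p = 0.624) without MD+CA replicate 2. Of the reads given to the pair, Tgtp1 took 45.1 to 91.0% in CD, 33.6 to 62.8% in MD and 64.1 to 93.8% in MD+CA. The sum of both genes was 5.14 to 12.4 CPM in CD, 6.85 to 10.9 in MD, and 23.1, 353, 32.0 and 26.5 in MD+CA, with no overlap between MD+CA and the other 8 libraries. Fitted as 1 gene, the pair had a log2 difference of 3.62 (SE 0.76, adjusted p = 0.0242) in MD+CA against MD and of 3.70 (SE 0.77, adjusted p = 0.0454) in MD+CA against CD. Without MD+CA replicate 2 these were 1.62 (SE 0.28, adjusted p = 0.0251) and 1.69 (SE 0.28, adjusted p = 0.0304).

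**Figure D3:**
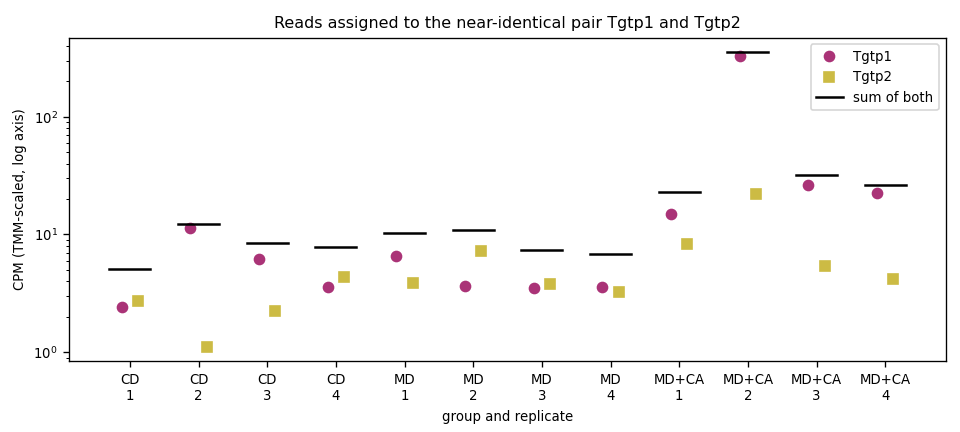
Reads assigned to Tgtp1 (circles) and Tgtp2 (squares) and their sum (bars) in each of the 12 libraries (y axis, CPM scaled by TMM, log axis). The sum is 23.1 CPM or more in the 4 MD+CA libraries and 12.4 CPM or less in the other 8.

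The regulators Irgm1, Irgm2 and Igtp, which guard the cell's own membranes, were each higher in all 4 MD+CA libraries than in all 4 MD libraries. Irgm2 was read at 37.5, 46.1, 36.1 and 39.1 CPM in CD, at 32.3, 20.96, 38.6 and 32.6 in MD, and at 63.1, 150.0, 54.3 and 63.9 in MD+CA. The MD+CA libraries stood clear of the other 8. Its log2 fold change against MD was 1.41 (SE 0.30, adjusted p = 0.0243), and 0.96 (SE 0.21, adjusted p = 0.0504) without MD+CA replicate 2. The call was also lost without MD replicate 1, 2 or 4 (adjusted p = 0.0559 to 0.0676).

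Irgm1, whose loss is known to leave mice open to mycobacteria, was read at 20.2, 32.0, 32.7 and 23.8 CPM in CD, at 34.5, 25.95, 32.5 and 28.3 in MD, and at 40.6, 107.6, 56.5 and 51.9 in MD+CA. Again no MD+CA library overlapped the other 8. The log2 fold change against MD was 1.08 (SE 0.27, adjusted p = 0.0481), and 0.71 (adjusted p = 0.129) without MD+CA replicate 2. This call was lost in 10 of the 12 fits that left out 1 library and held without MD replicate 3 and without MD+CA replicate 1.

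Igtp, also called Irgm3, was read at 23.0, 47.8, 40.8 and 30.9 CPM in CD, at 32.2, 24.1, 31.6 and 25.2 in MD, and at 39.3, 303, 51.1 and 58.2 in MD+CA. MD+CA lay above MD without overlap, but its lowest library lay within the CD range. The log2 fold change against MD of 2.00 (SE 0.53, adjusted p = 0.0532) did not pass the threshold, and it was 0.81 (adjusted p = 0.134) without MD+CA replicate 2.

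Ifi47, an IRG effector with the promoter window that held neither motif, was read at 4.66, 5.47, 5.99 and 6.19 CPM in CD, at 8.83, 7.43, 5.18 and 4.38 in MD, and at 9.65, 25.4, 13.9 and 12.7 in MD+CA. The MD+CA libraries did not overlap the other 8. Its log2 fold change was 1.26 (SE 0.29, adjusted p = 0.0371) against MD and 1.47 (SE 0.30, adjusted p = 0.0429) against CD. Without MD+CA replicate 2 these were 0.91 (adjusted p = 0.110) and 1.11 (adjusted p = 0.108). The call against MD was also lost without CD replicate 1 or 3, MD replicate 1, 2 or 4, or MD+CA replicate 3, and that against CD without any 1 of the 4 CD libraries, MD replicate 1 or 3, or MD+CA replicate 3.

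Iigp1, the effector with the highest level, was read at 424, 494, 555 and 390 CPM in CD, at 643, 634, 439 and 394 in MD, and at 510, 2239, 655 and 503 in MD+CA. The other 3 MD+CA libraries overlapped with MD and CD, and MD+CA replicate 2 lay 3.42 times above the next highest library. The log2 fold change against MD was 0.89 (SE 0.41, adjusted p = 0.213), and 0.08 (adjusted p = 0.896) without that library.

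Among the guanylate-binding proteins, Gbp3 was read at 47.3, 106.1, 61.4 and 46.4 CPM in CD, at 58.9, 64.5, 60.4 and 55.0 in MD, and at 95.9, 380, 69.0 and 88.2 in MD+CA. MD+CA lay above MD without overlap, and CD replicate 2 lay among the MD+CA libraries. The log2 fold change against MD was 1.41 (SE 0.46, adjusted p = 0.0927), and 0.50 (adjusted p = 0.345) without MD+CA replicate 2. Gbp2, a member known to act on pathogen vacuoles, was read at 7.57, 10.0, 6.89 and 5.56 CPM in CD, at 7.92, 5.50, 9.69 and 7.80 in MD, and at 15.0, 41.0, 5.06 and 18.9 in MD+CA. MD+CA replicate 3 was the lowest of all 12 libraries and replicate 2 the highest. Its log2 fold change against MD was 1.37 (SE 0.43, adjusted p = 0.0827), and 0.76 (adjusted p = 0.278) without replicate 2.

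Gbp7, another guanylate-binding protein, was the member whose direction in MD+CA against MD rested on 1 library. It was read at 38.4, 52.8, 49.4 and 42.8 CPM in CD, at 74.4, 85.5, 50.4 and 51.6 in MD, and at 61.0, 179, 49.6 and 52.0 in MD+CA. Apart from replicate 2, the MD+CA libraries lay below the 2 highest MD libraries. The log2 fold change against MD was 0.38 (SE 0.36, adjusted p = 0.541), and -0.27 (adjusted p = 0.556) without replicate 2.

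Counted together, 4 of the 10 genes passed the threshold upward in MD+CA against MD (Tgtp1, Irgm1, Irgm2 and Ifi47) and 0 downward, where 1.09% of all 13620 genes passed upward, 1.68% downward and 2.78% in either direction. An unadjusted p under 0.05 was found for 9 of 10, where 11.6% of all genes had one upward and as many downward. All 10 log2 fold changes were positive (49.7% of all genes), with a median of 1.32 against -0.00 over all genes, and the median was 0.73 without MD+CA replicate 2. In that fit 1 of the 10 passed, Tgtp1. The count was 0 without MD replicate 1, without MD replicate 2 or without MD replicate 4, and 2 without CD replicate 1 or without CD replicate 3. In 6 of the 10 genes (the same 4 with Igtp and Gbp3) every MD+CA library lay above every MD library, where 4.99% of all genes did, and the same 6 did without MD+CA replicate 2, where 6.31% of all genes did.

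Against CD, 1 of the 10 genes passed in MD+CA, Ifi47, where 0.529% of all genes passed in either direction, 0.22% upward and 0.308% downward. All 10 had an unadjusted p under 0.05 upward, where 6.18% of all genes did (4.35% downward). The count was 0 without any 1 of the 4 CD libraries, without MD replicate 1 or 3 or without MD+CA replicate 2, 3 without MD+CA replicate 1 and 4 without MD+CA replicate 4. All 10 log2 fold changes were positive (52.0% of all genes) and ran from 0.90 (Gbp7) to 4.10 (Tgtp1), with a median of 1.35 against 0.02 over all genes, and of 0.71 without MD+CA replicate 2. Every MD+CA library lay above every CD library for 4 genes, Tgtp1, Irgm1, Irgm2 and Ifi47, with and without replicate 2, where 3.5% of all genes did and 5.08% without it. The comparisons against MD and against CD share the MD+CA libraries.

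The diet without the compound gave no called difference in these genes, and with edgeR almost no gene had one. In MD against CD 0 of the 10 passed with edgeR, where 0.0881% of all genes passed in either direction and 0.0441% in each direction. A count of 0 therefore does not set the 10 apart from other genes. With DESeq2 and limma voom 0 of the 10 passed too, where 632 and 328 of all 13620 genes passed. An adjusted p that DESeq2 withheld, as for Tgtp1, was not counted. With edgeR 0 of 10 had an unadjusted p under 0.05 in either direction (10.6% of all genes upward, 9.41% downward). The log2 fold changes ran from -0.40 (Tgtp1, SE 0.85) to 0.78 (Tgtp2, SE 0.50), with 6 of 10 positive (53.7% of all genes) and a median of 0.11 against 0.04 over all genes. None of the 10 had every MD library above every CD library, which 5.99% of all genes did. This comparison shares the MD libraries with that of MD+CA against MD and the CD libraries with that of MD+CA against CD.

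**Figure D4:**
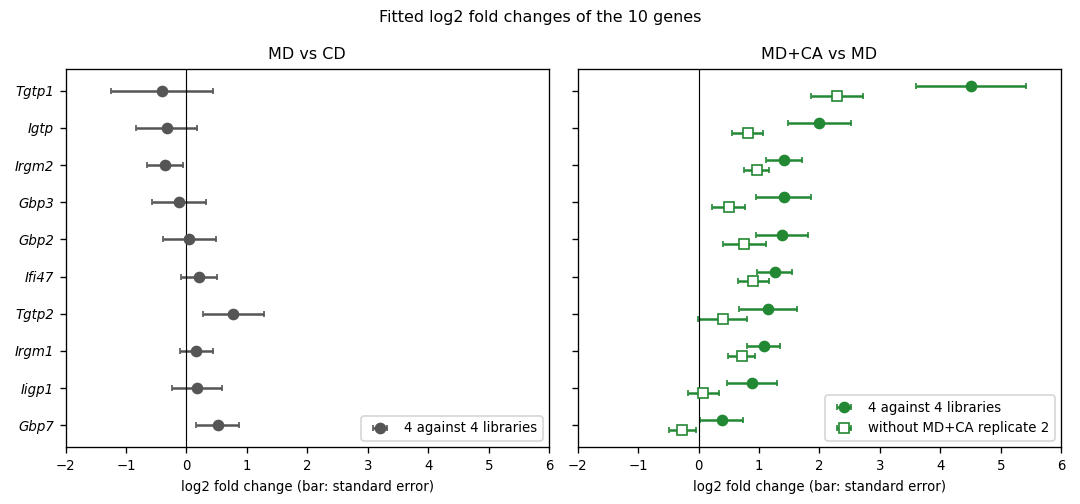
Log2 fold changes of the 10 genes (x axis) in MD against CD (left) and in MD+CA against MD (right), with bars of 1 SE. Filled points are from all libraries, and open squares from the fit without MD+CA replicate 2. In MD+CA against MD all 10 are above 0 with all libraries, and Gbp7 is below 0 without that library.

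MD+CA replicate 2 was the highest of the 12 libraries for 10 of the 10 genes, where it was the highest for 8.06% of all genes tested. It exceeded the next highest library more than 2 times for 8 of the 10, where it did so for 0.455% of all genes. The ratio to the next highest library ranged from 1.82 to 12.5 over the members, with a median of 2.50, and the members that exceeded it least were Irgm1 (1.91) and Ifi47 (1.82). Summed over the 10 genes, the level was 3778 CPM in that library, 858 to 987 CPM in the other 3 MD+CA libraries, 606 to 903 in MD and 593 to 807 in CD. The sum is dominated by Iigp1. The mean log2 level over the 10 genes, which weights them equally, was 7.23 in that library, 5.18 to 5.33 in the other 3 MD+CA libraries, 4.35 to 4.75 in MD and 4.18 to 4.73 in CD, so that all 4 MD+CA libraries lay above the other 8.

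Compared per length, in TPM (transcripts-per-million), the order of the genes was led by Iigp1 in every group. Its median levels were 200, 214 and 271 TPM (CD, MD, MD+CA), and its libraries did not overlap with those of the next gene, Gbp3, with medians of 21.2, 19.5 and 39.4 TPM. Gbp3, Igtp and Irgm1 came next in CD and overlapped with their neighbours in the order, and in CD Irgm2 stood clear above Gbp7 (medians of 15.1 and 10.3 TPM) and Gbp7 clear above Ifi47 (5.19 TPM). Tgtp1 had the lowest median level in CD (2.55 TPM) and in MD (1.78 TPM) and was sixth in MD+CA (16.6 TPM), overlapping with its neighbours in the order in all 3 groups. Its place against Tgtp2 rests on how reads were divided between the pair and among their transcripts. In CD replicate 3, 8.87 reads on Tgtp2-202, a transcript of 370 bases, made 5.96 of the 6.72 TPM of Tgtp2. In MD+CA replicate 2, 82.9 reads on it made 51.8 of 60.3 TPM, and CD replicate 1 had 0 reads on it. In mean CPM, which is not scaled by length, Tgtp1 and Tgtp2 were at 5.85 and 2.59 in CD and at 4.32 and 4.54 in MD. Gbp2 was ninth in CD and MD and last in MD+CA, at 3.35, 3.05 and 8.13 TPM.

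Relatives of the 10 genes were counted from a list of 22 other IRG, GBP, Mx and giant GTPase genes, of which 19 were tested. In MD+CA against MD 6 of the 19 passed upward and 0 downward, with a median log2 fold change of 1.47, and 17 of 19 were positive. The 6 were Gm12250 (3.32, SE 0.66, adjusted p = 0.0201), Gvin1, a giant interferon-inducible GTPase (2.98, SE 0.54, adjusted p = 0.0168), Gbp2b (2.52), Gbp10 (2.49), Gbp6 (2.31) and Gbp5, known for its part in inflammasome assembly (1.90). Without MD+CA replicate 2 the median was 0.65 and 2 passed, Gm12250 (1.88, adjusted p = 0.0391) and Gvin1 (1.75, adjusted p = 0.00226). Gbp2b was then at 1.34 (adjusted p = 0.137), Gbp10 at 1.24 (adjusted p = 0.129), Gbp6 at 1.27 (adjusted p = 0.0612) and Gbp5 at 1.12 (adjusted p = 0.136). Gvin1 was read at 12.7 to 14.7 CPM in MD, 17.7 to 28.2 in CD, 295 in MD+CA replicate 2 and 45.0 to 49.0 in the other 3 MD+CA libraries. Its groups did not overlap, and it was the only one of the 6 whose call held in all 12 fits that left out 1 library. The call of Gm12250 was lost without MD replicate 1, 2 or 4. Gbp6 and Gbp10 are close copies of each other that can share reads. In MD against CD and in MD+CA against CD 0 of the 19 passed.

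Most ligands were too low to be tested, and none of the receptors, kinases and brakes that were tested passed in any comparison. Ifng, which encodes interferon gamma, had 13 reads over all 12 libraries, 6 of them in MD+CA replicate 2, and no other library had more than 2. It was too low to be tested. Of the ligand list only Il18, a cytokine known to drive interferon gamma production, was tested, with a log2 fold change of -0.08 (adjusted p = 0.842) in MD+CA against MD. Of the receptors and kinases 8 were tested and 0 passed in any comparison, Ifngr1, the ligand-binding chain of the interferon gamma receptor, having the smallest p in MD+CA against MD (0.72, SE 0.22, adjusted p = 0.0774). Of the brakes 6 were tested and 0 passed, with Usp18, which damps type I interferon signalling, at 0.85 (SE 0.22, adjusted p = 0.0517) and Ptpn6 at 0.66 (SE 0.20, adjusted p = 0.0794). Socs1, the inhibitor of JAK kinases, had 25 reads in all and was not tested.

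Irf1, an interferon-induced transcription factor, had a log2 difference of 0.00 (SE 0.20, adjusted p = 0.994) in MD+CA against MD. Its level was 46.6 CPM in MD+CA replicate 2, 29.7 to 33.1 in the other 3 MD+CA libraries and 30.1 to 41.5 in MD.

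Interferon gamma targets and type I interferon-stimulated genes had smaller median log2 fold changes than the 10 GTPases in MD+CA against MD. The 10 were chosen with their high levels in MD+CA known, so this order can follow from that choice alone. The GTPase relatives above had a median of 1.47 against 1.32 for the 10, and of 0.65 against 0.73 without MD+CA replicate 2. Of 22 interferon gamma targets tested (chemokines, antigen presentation, immunoproteasome), 0 passed in MD+CA against MD and 8 had an unadjusted p under 0.05 upward. Their median log2 fold change was 0.54, and 0.20 without MD+CA replicate 2. Cxcl9, a chemokine for T cells, was at 1.22 (SE 0.37, adjusted p = 0.0794) and Cd74, the invariant chain of MHC class II, at 1.04 (SE 0.31, adjusted p = 0.0718). Without MD+CA replicate 2 Cxcl9 was at 0.73 (adjusted p = 0.250) and Cd74 at 0.58 (adjusted p = 0.205). Of 26 type I interferon-stimulated genes tested, 3 passed upward, Cmpk2 (1.48, SE 0.26, adjusted p = 0.0143), Oasl1 (1.03, SE 0.25, adjusted p = 0.0402) and Ifit3b (1.22, SE 0.31, adjusted p = 0.04997). Their median was 0.75, and 0.56 without replicate 2, where only Cmpk2 passed (1.31, adjusted p = 0.0412). Of 16 partners on the vacuole (ATG8 conjugation, ubiquitin ligases, inflammatory caspases), 0 passed. The smallest p was that of Trim21 (1.16, SE 0.31, adjusted p = 0.0565) and Rnf213 (0.66, SE 0.23, adjusted p = 0.110). Without MD+CA replicate 2 Trim21 was at 0.83 (adjusted p = 0.166) and Rnf213 at 0.47 (adjusted p = 0.283). Whether these lists differ from the 10 GTPases was not tested.

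**Figure D5:**
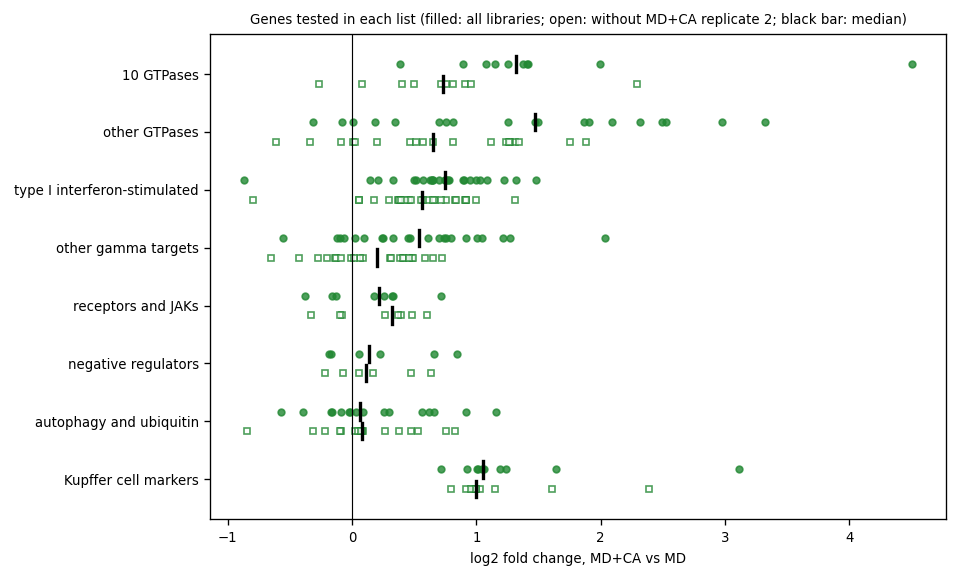
Log2 fold changes of MD+CA against MD (x axis) for the tested genes of 8 lists (rows), with all libraries (filled) and without MD+CA replicate 2 (open), where points are genes and bars are list medians. The members' median is 1.32 and then 0.73, and that of the 19 relatives 1.47 and then 0.65.

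Markers of other liver cells were read beside these results. The 14 T and natural killer cell markers, cells that are known to make interferon gamma, summed to 4.92 to 7.93 CPM in CD, 3.26 to 7.63 in MD and 6.84 to 9.10 in 3 MD+CA libraries, and to 19.3 CPM in MD+CA replicate 2. None of the 14 was at 0 in a whole group, but only 3 were high enough to be tested and 0 of these passed. The 10 Kupffer cell markers summed to 237 to 297 CPM in CD and to 182 to 318 in MD. In MD+CA they summed to 400 to 721 CPM in 3 libraries and to 791 in replicate 2. In MD+CA against MD 5 of the 10 passed upward (Vsig4, Cd5l, Marco, C1qa and Csf1r), with a median log2 fold change of 1.05, and 0.997 without replicate 2, where 3 passed. Marco, a scavenger receptor, had the largest change of the 10 (3.12, SE 0.61, adjusted p = 0.0195), and it was 2.39 (adjusted p = 0.0497) without replicate 2. In MD+CA against CD 4 of the 10 Kupffer cell markers passed upward (Cd5l, Marco, C1qb and Csf1r). Of the neutrophil markers Ly6g was at 0 in all libraries, and Retnlg was at 0 in CD and MD. Of the markers of neutrophils (2 of 6 tested), B cells (4 of 6) and recruited macrophages (5 of 8) 0 passed in MD+CA against MD. The same held for hepatocytes (8 tested), sinusoidal endothelium (8), stellate cells (6) and bile duct (5). An unadjusted p under 0.05 was found upward for all 10 Kupffer cell markers and for 1 of the 3 T and natural killer cell markers tested. Upward it was also found for 1 neutrophil, 1 B cell, 1 recruited macrophage and 1 bile duct marker. It was found downward for 4 sinusoidal, 1 stellate and 1 bile duct marker, where 11.6% of all genes had one in each direction. Of 5 dendritic cell markers tested 1 passed downward, Zbtb46 (-0.91, SE 0.23, adjusted p = 0.0492). The part of these cells in the GTPase levels was not tested.

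The genes most like the members were found by Spearman correlation over the 12 libraries with the mean standardised level of the 10 genes, among 12041 protein-coding genes tested. The 8 with the highest rho were Pstpip1, Pak1 and Il7 (0.90 each), Ccdc66 (0.90), Gbp6 and Ddx60 (0.89 each), and Lpl and Herc6 (0.88 each). These values describe libraries that share their depth and groups, and no test is given. By Pearson correlation 2 of the 8 stayed among the first 8, and by Spearman correlation without MD+CA replicate 2, 6 did, among 11 genes that held these places with ties counted. Some of the 8 had few reads per library, Il7 1 to 19, Pak1 17 to 40 and Pstpip1 13 to 89, so their order is open to counting noise. Pak1 and Il7 ranked 368 and 395 by Pearson correlation. Gbp6 belongs to the same family, Ddx60 and Herc6 are known interferon-stimulated genes, and Lpl encodes lipoprotein lipase, with a log2 fold change of 1.72 (adjusted p = 0.0117) in MD+CA against MD.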

How the data were processed

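Poly(A)-selected liver RNA was sequenced, and the authors quantified it per transcript with Salmon 1.10.3 after fastp on build GRCm39, per the submitters' processing notes, which also name DESeq2. The annotation, the options and how strand was handled: not given in the sources used here. Per the file headers, the deposited expected counts are estimated reads of each transcript without normalization. TPM values, per the file headers, are deposited after scaling by transcript length and depth. The deposited effective lengths (other values) entered 1 alternative. The members and lists were chosen with earlier results of these data known.

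Expected counts of 147556 transcripts were summed per symbol (the members had 35 transcripts) and rounded. Genes were filtered with filterByExpr (minimum count 10), leaving 13620, and scaled by TMM. CPM is on that scale. Contrasts came from 1 edgeR 4.0.16 quasi-likelihood model of the 3 groups over 12 libraries (residual degrees of freedom 9, common coefficient of biological variation 0.307). P-values were adjusted by Benjamini-Hochberg across the 13620 genes, and the threshold was 0.05. Log2 levels used a prior count of 2. The steps were tested on simulated data. Depth was 9089586 to 14492587 assigned reads, so 3 counts are 0.207 to 0.33 CPM.

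Alternatives were RLE scaling, DESeq2 1.42.0, limma 3.58.1 voom with sample weights, no filter, a transcript length offset, models of 2 groups, the replicate number as a block, Tgtp1 and Tgtp2 summed, and each library left out. Counts of non-overlap without MD+CA replicate 2, the alternatives for genes of the other lists, and the summed Tgtp pair without that library, were added after seeing the data. All 10 members were named. From each other list the genes passing in any comparison were named or, where none passed, the 2 with the smallest p in MD+CA against MD, with Ifng, Irf1 and Socs1 always. A gene that this rule takes is not reported here. The 8 genes most like the members were added. Of the marker lists, those that moved with the members or bear on the tissue are described. Gbp7 and Gm12185 in the motif results, and the sex-linked and clock genes, were chosen after their values were seen. The promoters are from RefSeq (GRCm38.p6), the coding sequences from GENCODE M21. Software also included matplotlib 3.10.9, pandas 2.3.3, numpy 2.4.6, R 4.3.3 and Python 3.11.15.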

Additional observations from a re-analysis of the deposited data

Results flagged for a closer look

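In each of the 10 genes the 4 libraries of a group were checked for 1 value far from the other 3 by Dixon's ratio, at its 95% critical value. Of 30 groups 8 had such a value. The genes were chosen with their MD+CA levels known, and they share libraries, so this count cannot be set against a chance rate. In MD+CA replicate 2 these were Tgtp1 at 331 CPM, Igtp at 303 CPM, Irgm2 at 150.0 CPM, Iigp1 at 2239 CPM, Gbp3 at 380 CPM and Gbp7 at 179 CPM. In MD, Tgtp1 stood high in replicate 1 at 6.52 CPM, and Tgtp2 stood high in replicate 2 at 7.23 CPM. The 6 values in MD+CA replicate 2 come from 1 library and are not separate events.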

How the results depend on the processing

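In MD+CA against MD the count of members passing, 4, was 7 without the low-count filter and 6 with DESeq2. DESeq2 withheld the adjusted p of Tgtp1, so Tgtp1 is not among these 6. The count was 2 with the length offset and 1 with only the 2 compared groups in the model. It ranged from 0 to 5 over the 12 fits that left out 1 library. In MD+CA against CD, where 1 passed, it was 8 without the filter, 5 with DESeq2, 3 with limma voom, 2 with the Tgtp pair summed, 0 with the length offset and 0 with only 2 groups, and ranged from 0 to 4. In MD against CD 0 passed in every setting. RLE scaling gave the same counts of members. Over the fits that left out 1 library, the members' median log2 fold change ranged from 0.73 to 1.46 (MD+CA against MD), 0.71 to 1.52 (MD+CA against CD) and 0.01 to 0.21 (MD against CD).

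Counts over all genes were 12 (MD against CD), 378 (MD+CA against MD) and 72 (MD+CA against CD). In that order they were 632, 1207 and 333 with DESeq2, 328, 337 and 179 with limma voom, 481, 1031 and 397 without the filter, 2, 198 and 34 with the length offset, 34, 99 and 46 with only 2 groups, and 0 to 26, 110 to 962 and 15 to 172 leaving out 1 library. The replicate number does not pair the libraries by the labels. Of 12 same-numbered pairs 8 correlated above 0.1 (range -0.0769 to 0.349), and 10 of 12 libraries correlated best with their own number, a hint from the data only. With the replicate number as a block 4 members passed in MD+CA against MD, 3 in MD+CA against CD and 0 in MD against CD, and over all genes 674, 154 and 12.

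Signs turned for uncalled values in MD against CD. Tgtp1 became 0.0120 with the block, 0.0774 with the pair summed and 0.11 without CD replicate 2 (range leaving out 1 library, -0.68 to 0.11). Gbp3 became 0.0129 with the block and 0.21 without CD replicate 2 (range -0.26 to 0.21). Tgtp2 became -0.0736 with the length offset, and Gbp2 -0.0745 without CD replicate 4 and -0.0828 without MD replicate 3 (range -0.0828 to 0.21). In MD+CA against MD, Gbp7 became -0.27 without MD+CA replicate 2 (range -0.27 to 0.56). Irf1 became -0.0122 with the block, and leaving out 1 library it ranged from -0.16 to 0.0911, below 0 in 5 settings in all. The cause was not tested. An adjusted p that DESeq2 withheld, as for Tgtp1, was not counted. The depth limits Ifng and Socs1, which had too few reads to be tested.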
